A study of Homo sapiens with 2 samples.

Results

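Annexins are calcium-dependent proteins that bind the negatively charged phospholipids of cell membranes, and their transcripts were examined among the RNA that co-precipitated with LRPPRC. The 10 members, ANXA1 to ANXA8, ANXA10 and ANXA11, were taken by gene name from the 16802 named rows of a table of 21262, and each had a single row. The samples were 2 RNA immunoprecipitation (RIP) libraries of 1 group, prepared with 2 μg of anti-LRPPRC antibody from lysates of A549 cells of WT genotype, an epithelial line from a human lung adenocarcinoma, with no treatment given. LRPPRC is an RNA-binding protein of mitochondria and cytoplasm, and the study asked which RNAs it carries in these cells. The series description calls the replicates technical whereas the paper calls them biological, and the SD between them may thus hold technical error alone. All values are FPKM, fragments scaled to transcript length and to library size. The columns summed to 196627 FPKM (replicate 1) and 194839 FPKM (replicate 2), and the sequencing depth is unknown. Values give the RNA in the precipitate without reference to input RNA, so abundance in the cell and capture by LRPPRC cannot be told apart. Since both libraries are of 1 condition, no conditions were compared.

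Each annexin pairs a conserved core of repeats, which holds the calcium and the membrane, with a variable N-terminal head that binds partner proteins such as the S100 family. Annexins organise membrane domains, vesicle traffic and the repair of a torn plasma membrane, and ANXA1 and ANXA2 are well known in lung epithelium and in carcinoma. A common calcium site of the core is a loop of glycine, any residue, glycine and threonine, followed 38 residues later by aspartate or glutamate. In the coding sequences of the canonical GENCODE 44 transcripts on GRCh38, this motif was found 5 times in ANXA6, which has a duplicated core, 3 times in ANXA3, ANXA4, ANXA5, ANXA7, ANXA8 and ANXA11, 2 times in ANXA1 and ANXA2 and 1 time in ANXA10. The exact spacing was required, so sites with other spacing were not counted. The first occurrence in each member is shown because each of the 10 mRNAs encodes the loop at least 1 time, with its codons in capitals. The stretches come from different places in the core and are not the same repeat in every member.

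ANXA2: tccatgaagGGGCTGGGAACCgacgaggac
ANXA1: gccatgaagGGCCTTGGAACTgatgaagat
ANXA10: gccatgaagGGAGTAGGCACTgatgagaat
ANXA6: gccatctcgGGCATTGGCACTgatgagaag
ANXA5: gctatgaaaGGCTTGGGCACAgatgaggag
ANXA4: gccatgaaaGGGCTCGGCACCgatgaagac
ANXA11: gccatgaaaGGCTTCGGGACGgatgagcag
ANXA7: gcaatgaagGGTTTTGGGACAgatgagcag
ANXA3: gcaatcagaGGAATTGGAACTgatgagaaa
ANXA8: gccatgaagGGGATCGGGACCaacgagcag

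In all 10 genes an intron cut this stretch of 30 bases. It followed base 9, just before the loop, in the 4 genes listed first, and base 16, inside the codon of the second glycine, in the other 6. The loop of ANXA2 starts at residue 120, that of ANXA1 at residue 129, that of ANXA6 at residue 107 and that of ANXA10 at residue 104. The levels described next did not separate by this feature, since the first 4 genes hold both the highest and the lowest member. Over the 45 pairs of members, identity of the aligned bases of whole coding sequences had a median of 60.2%, with the lowest, 57.4%, for ANXA3 and ANXA7 and the highest, 64.0%, for ANXA6 and ANXA8.

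ANXA2 was the highest annexin transcript in LRPPRC RIP, followed by ANXA5, ANXA1 and ANXA4. These 4 had a mean above FPKM 30, the level above which the study listed potential binding RNAs. The study also used RIP signal over input, which was not used here. Of the 10 members 4 had a mean above FPKM 30, against 8.45% of all 16802 named rows. Above it in both libraries were 3 members, and no share of named rows was computed for that rule. Of the 9 members with a mean FPKM of at least 1, 4 were above 30, against 13.3% of the 10639 named rows at that level. These shares are a description of the 10 members and were not tested. Left out of them were ANXA8L1, at a mean of 9.45 FPKM, and ANXA9 and ANXA13, both below FPKM 1. The median of the members was 12.5 FPKM, against 6.60 FPKM for named rows with a mean of at least 1, and 7 of 10 members lay above that. The family took 0.156% of all FPKM in replicate 1 and 0.152% in replicate 2. The 4 highest members held 85.7% of the family's summed FPKM.

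**Figure D1:**
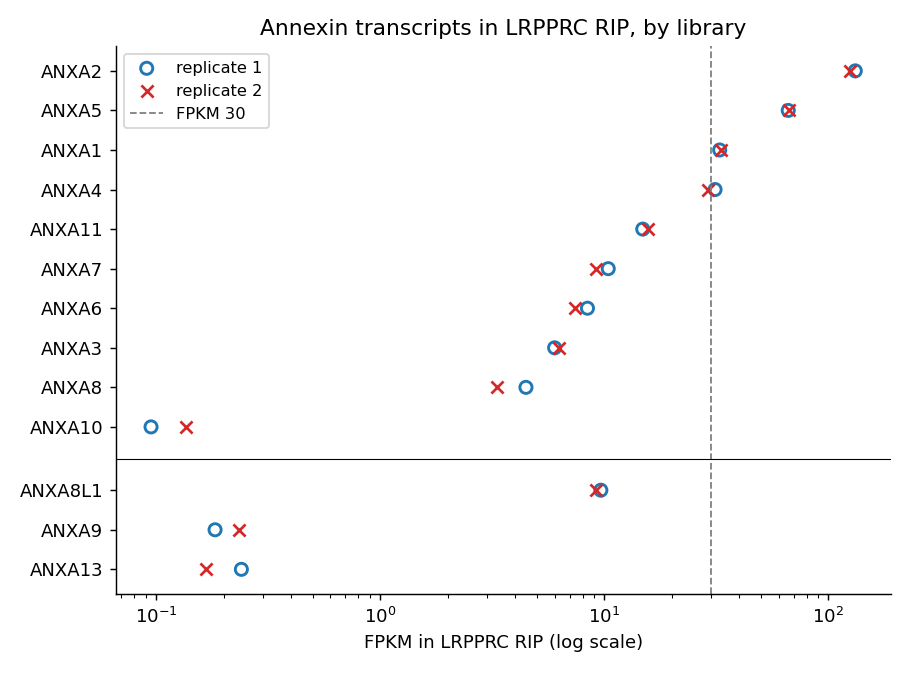
Levels of the 10 annexins in FPKM (x axis, log scale), ordered by mean, and below the line of ANXA8L1, ANXA9 and ANXA13 (y axis). Replicate 1 is drawn as circles, replicate 2 as crosses and FPKM 30 as a dashed line, which ANXA2, ANXA5 and ANXA1 exceed in both libraries and ANXA4 in 1.

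ANXA2 forms a complex with S100A10 at the cytoplasmic face of the plasma membrane and of endosomes, where it binds actin. Its mRNA had 132 FPKM in replicate 1 and 125 FPKM in replicate 2, a mean of 129 ± 4.69 FPKM (SD, n = 2). This level was above that of 98.4% of named rows with a mean of at least 1, at rank 167 of 16802. ANXA2 alone held 42.7% of the summed FPKM of the 10 members. The gene lies on chromosome 15 of GRCh38 from 60347134 to 60402883 on the minus strand, where 13 exons give a canonical transcript of 1554 bases, 479 of them 3′ UTR.

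ANXA2 has processed pseudogenes, intronless copies of its mRNA elsewhere in the genome, which can share its reads. The coding sequence of 1020 bases aligned over its whole length to ANXA2P2 on chromosome 9 (33624274 to 33625293, plus strand) with 98.4% identity, or 16 differing bases. ANXA2P1 and ANXA2P3 aligned with 93.8% and 92.2% identity. The stretch with the most differences from ANXA2P2 is shown, with the differing bases in capitals, for ANXA2 (chr15:60364473-60364502, minus strand) and ANXA2P2 (chr9:33624443-33624472, plus strand).

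ANXA2: tcaacattTtgaccaaccgcAGcaatgcac
ANXA2P2: tcaacattGtgaccaaccgcGAcaatgcac

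Of all windows of 100 bases in the canonical ANXA2 transcript, 19.7% occurred identically in a transcript of another gene, and of windows of 50 bases 38.2%. Because the handling of such reads by the authors' tools was not stated, the level of ANXA2 is uncertain by the reads that may have been shared. No value of the pseudogenes was analysed here.

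ANXA5 binds phosphatidylserine with high affinity and is the protein used to stain apoptotic cells. Its mRNA had 66.3 FPKM in replicate 1 and 66.9 FPKM in replicate 2, a mean of 66.6 ± 0.432 FPKM (SD, n = 2), and was the most even of the members between the libraries. ANXA2 was 1.93 times as high by the means, 1.99 times in replicate 1 and 1.87 times in replicate 2. ANXA5 lies on chromosome 4 from 121667946 to 121696995 on the minus strand, with 13 exons and a transcript of 1638 bases.

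ANXA1, a glucocorticoid-induced protein that restrains phospholipase A2 and signals through formyl peptide receptors, followed at close to the threshold. It had 32.8 FPKM in replicate 1 and 33.3 FPKM in replicate 2, a mean of 33.0 ± 0.362 FPKM (SD, n = 2). ANXA5 was 2.02 times as high. The gene lies on chromosome 9 from 73151865 to 73170393 on the plus strand and has 13 exons.

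ANXA4, an annexin of epithelial cell membranes, was the member that the threshold split. It had 31.2 FPKM in replicate 1 and 29.1 FPKM in replicate 2, a mean of 30.2 ± 1.50 FPKM (SD, n = 2), so it was above FPKM 30 in 1 of 2 libraries. Without replicate 1 the count of members above the threshold was 3, for which no share of named rows was computed. Its levels lay below those of ANXA1 in both libraries, by 1.05 times in replicate 1 and 1.14 times in replicate 2. ANXA4 lies on chromosome 2 from 69644425 to 69827112 on the plus strand, and 1597 of the 2651 bases of its transcript are 3′ UTR.

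The members with long heads or a duplicated core had intermediate levels. ANXA11, whose disordered head lets it join RNA granules and which binds the calcium sensor PDCD6, had 14.9 FPKM in replicate 1 and 15.7 FPKM in replicate 2, a mean of 15.3 ± 0.616 FPKM (SD, n = 2). ANXA7, also called synexin, which promotes the fusion of membranes, had 10.4 FPKM and 9.16 FPKM, a mean of 9.79 ± 0.891 FPKM (SD, n = 2). ANXA6, which binds membranes of endosomes and recruits the RAS inhibitor RASA1, had 8.42 FPKM and 7.39 FPKM, a mean of 7.91 ± 0.726 FPKM (SD, n = 2). All 3 lay below the threshold in both libraries and above the median of named rows with a mean of at least 1. ANXA11 (80150889 to 80205572) and ANXA7 (73375101 to 73414076) lie on the minus strand of chromosome 10, and ANXA6 (151100706 to 151157815) lies on the minus strand of chromosome 5 with 26 exons.

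ANXA3, ANXA8 and ANXA10 were the lowest members. ANXA3 had 6.01 FPKM in replicate 1 and 6.29 FPKM in replicate 2, a mean of 6.15 ± 0.203 FPKM (SD, n = 2), just below the 6.60 FPKM of the median named row with a mean of at least 1. ANXA10, known as an annexin of gastric epithelium, had 0.0949 FPKM and 0.136 FPKM, a mean of 0.116 ± 0.0293 FPKM (SD, n = 2). ANXA10 was the only member below FPKM 1, and at an unknown depth the precision of such a value cannot be stated. ANXA3 (78551747 to 78610451) and ANXA10 (168092537 to 168187736) both lie on the plus strand of chromosome 4, which also carries ANXA5.

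ANXA8, an annexin of stratified and other epithelia that binds late endosomes, had 4.47 FPKM in replicate 1 and 3.31 FPKM in replicate 2, a mean of 3.89 ± 0.824 FPKM (SD, n = 2). Its value cannot be read alone, because a near-identical gene, ANXA8L1 (46375627 to 46391784, plus strand), lies on the same chromosome 10 as ANXA8 (47460162 to 47484158, minus strand). Their coding sequences of 984 bases differ at 5 bases (99.5% identity). The stretch with the most differences is shown, with the differing bases in capitals, for ANXA8 (chr10:47474954-47474983, minus strand) and ANXA8L1 (chr10:46384795-46384824, plus strand).

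ANXA8: agctttgtggacccAgGactggccctccaa
ANXA8L1: agctttgtggacccGgCactggccctccaa

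Of the windows of 100 bases in the ANXA8 transcript 69.0% occurred identically in a transcript of another gene, most often ANXA8L1, and of windows of 50 bases 83.2%. In the 8 members other than ANXA2 and ANXA8, no window of 100 bases did. ANXA8L1 had 9.66 FPKM in replicate 1 and 9.24 FPKM in replicate 2, a mean of 9.45 ± 0.300 FPKM (SD, n = 2), 2.43 times the mean of ANXA8. Summed, the pair had 14.1 FPKM in replicate 1 and 12.5 FPKM in replicate 2. ANXA8 held 31.7% of the sum in replicate 1 and 26.4% in replicate 2, and its log2 ratio of replicate 1 over replicate 2, 0.44 with no pseudocount, was larger than that of the sum, 0.17. How reads were split between the genes was not tested. The other annexin genes that are no members, ANXA9, at 0.209 ± 0.0367 FPKM (SD, n = 2), and ANXA13, at 0.203 ± 0.0523 FPKM (SD, n = 2), were both below FPKM 1, and the coding sequence of ANXA9 held 0 of the calcium motifs.

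The order of the members was the same in both libraries. All 10 kept their rank, and in none of the 9 pairs of neighbours did the values of the higher member overlap those of the lower. By the ratio of the means, the narrowest steps were those of ANXA1 over ANXA4 (1.09 times) and ANXA7 over ANXA6 (1.24 times). For ANXA1 over ANXA4 the means differed by 2.84 FPKM against 1.86 FPKM for the sum of both SDs, and for ANXA7 over ANXA6 by 1.89 FPKM against 1.62 FPKM. With 2 libraries neither step was tested. FPKM of different genes also depends on the transcript model and on how reads map.

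**Figure D2:**
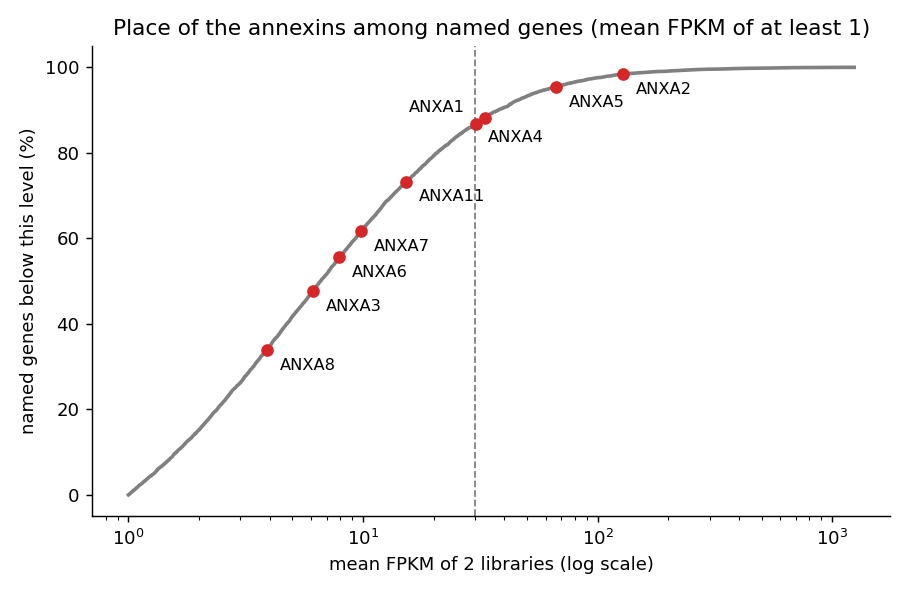
Share of the 10639 named rows with a mean FPKM of at least 1 that lie below each level (y axis, %) against mean FPKM on a log scale (x axis). The gray curve is all such rows, red points are 9 annexins from ANXA8, above 33.9% of rows, to ANXA2, above 98.4%, ANXA10 is below the plotted range, and the dashed line is FPKM 30.

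By the median, the members differed slightly more between the libraries than named rows with a mean of at least 1. The median absolute log2 ratio of FPKM + 1 was 0.08 over the 10 members and 0.06 over the 10639 named rows with a mean of at least 1. On this scale ANXA8 differed most, with a log2 ratio of replicate 1 over replicate 2 of 0.35, more than 96.6% of those rows. ANXA7 and ANXA6 followed with 0.17 each. With no pseudocount ANXA10, at a mean of 0.116 FPKM, differed more than ANXA8, with -0.52 against 0.44. ANXA1 and ANXA5 differed least, with -0.02 and -0.01. Of the 10 members 5 were higher in replicate 1 and 5 in replicate 2, against 56.1% of those rows higher in replicate 1.

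**Figure D3:**
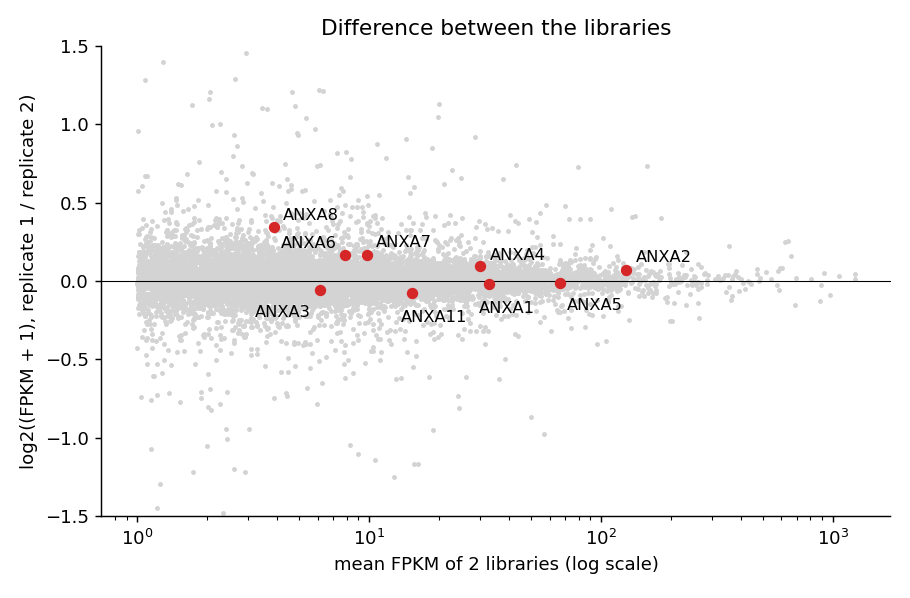
Log2 ratio of FPKM + 1 in replicate 1 over replicate 2 (y axis) against mean FPKM on a log scale (x axis) for named rows with a mean of at least 1 (gray) and 9 annexins (red). Of the 10639 rows 11 lie beyond the plotted range, ANXA8 stands highest of the annexins at 0.35 and ANXA10, below FPKM 1, is not shown.

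The order of the annexins depended in part on transcript length. FPKM multiplied by the length of the canonical transcript in kb approximates a gene's share of fragments, although these lengths come from a later annotation than the authors' models. By this product ANXA2, at 200.1, and ANXA5, at 109, were still the highest. ANXA11 ranked 3, at 103, against rank 5 by FPKM, since its transcript of 6734 bases has a 3′ UTR of 4964 bases, the longest of the members. ANXA1, with a transcript of 1401 bases, ranked 5 by the product, at 46.3, against rank 3 by FPKM, and ANXA4 ranked 4 by both. ANXA2 held 33.2% of the summed product, against 42.7% of the summed FPKM.

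**Figure D4:**
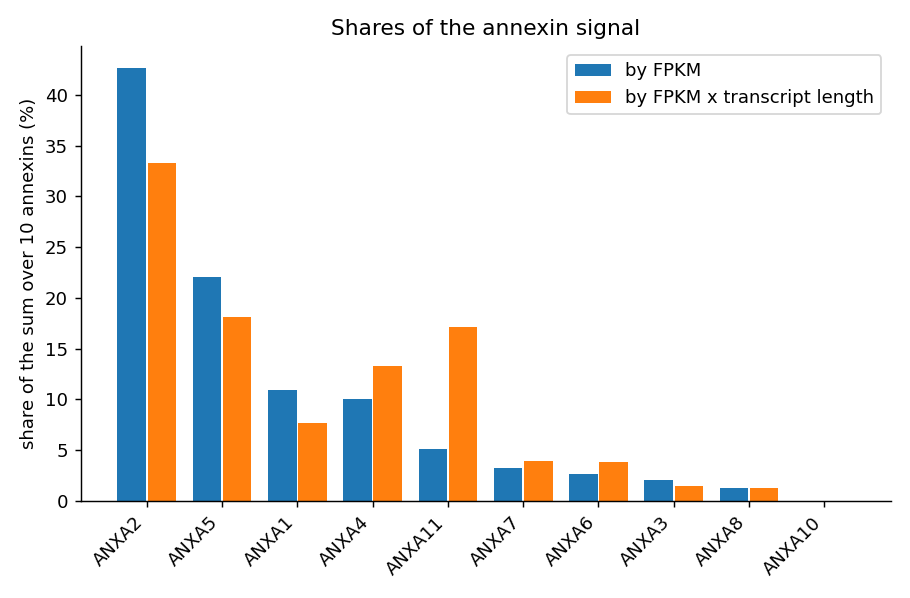
Share of each annexin in the sum over the 10 members (y axis, %), by mean FPKM (blue) and by mean FPKM multiplied by transcript length (orange), with genes ordered by FPKM (x axis). ANXA11 holds 5.07% by FPKM and 17.1% by the product, and ANXA2 is the tallest bar by both.

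Genes of unrelated families had levels close to those of the 3 highest members. Over the 2 libraries, the named rows nearest to ANXA2 in log2 FPKM were CUL4B, at a distance of 0.03, and NCAPD2, at 0.04. Nearest to ANXA5 were ARPC3 and SMS, and nearest to ANXA1 were SREBF2 and VDAC1, each at 0.01. With 2 libraries of 1 condition this is a likeness of level alone.

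Among proteins known to bind annexins, the transcripts of S100A10 and S100A11 were high in the precipitate, whereas S100A6, also on the list, had 7.73 FPKM. S100A10, a partner of ANXA2, had 74.0 FPKM in replicate 1 and 73.4 FPKM in replicate 2, and the mean of ANXA2 was 1.75 times as high. S100A11, a partner of ANXA1, had 33.3 FPKM and 36.7 FPKM, close to ANXA1 itself. ANXA1 was at 0.983 times the level of S100A11 in replicate 1 and 0.906 times in replicate 2. Of 14 listed partners, 4 had a mean above FPKM 30, against 8.45% of all named rows. A mean of at least 1 was found for 10 of the 14, against 10639 of all 16802 named rows. Of these 10, 4 were above 30, against 13.3% of named rows at that level. The counts were not tested. Besides S100A10 and S100A11, AHNAK and EGFR were above FPKM 30. AHNAK, a giant scaffold recruited by the complex of ANXA2 and S100A10, had 34.5 ± 0.560 FPKM (SD, n = 2). EGFR, a receptor whose traffic involves annexins, had 34.3 ± 1.53 FPKM (SD, n = 2).

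The other partners were lower. SRI, the calcium sensor sorcin that binds ANXA7, had 27.7 ± 0.218 FPKM (SD, n = 2), PDCD6 had 7.10 ± 0.513 FPKM (SD, n = 2) and S100A6 had 7.73 ± 0.632 FPKM (SD, n = 2). RASA1, at 11.6 ± 0.190 FPKM (SD, n = 2), and PRKCA, at 13.3 ± 0.313 FPKM (SD, n = 2), are partners of ANXA6. Extracellular and immune partners were near 0, among them FPR1, a receptor for ANXA1, at 0.144 ± 0.00637 FPKM (SD, n = 2), FPR2, at 0.0115 FPKM in replicate 1 and listed at 0 in replicate 2, and plasminogen (PLG), at 0.0594 ± 0.00675 FPKM (SD, n = 2). The median of the 14 partners was 9.69 FPKM.

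Of the genes that act with annexins in membrane repair, MYOF had a level above that of ANXA2. Of 19 such genes 4 had a mean above FPKM 30, against 8.45% of all named rows. A mean of at least 1 was found for 16 of the 19, against 10639 of all 16802 named rows. Of these 16, 4 were above 30, against 13.3% of named rows at that level. The median of the 19 was 10.7 FPKM, and the counts were not tested. MYOF, a ferlin that binds membranes through C2 domains, had 219 FPKM in replicate 1 and 215 FPKM in replicate 2, a mean 1.69 times that of ANXA2. CAV1, the coat protein of caveolae, had 116 ± 3.16 FPKM (SD, n = 2), CAPN2, a catalytic calpain, had 79.0 ± 1.11 FPKM (SD, n = 2) and PDCD6IP, the ESCRT adaptor ALIX, had 49.3 ± 0.462 FPKM (SD, n = 2). DYSF, the ferlin of muscle repair, had 1.75 ± 0.0752 FPKM (SD, n = 2). TRIM72, a repair factor of muscle, had 0.00179 FPKM in replicate 1 and was listed at 0 in replicate 2.

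**Figure D5:**
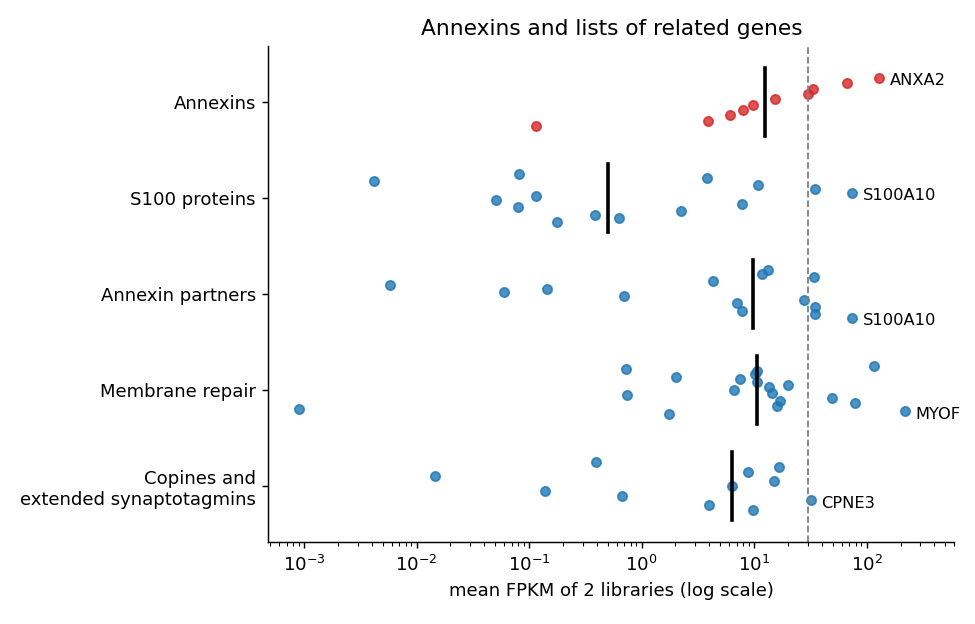
Mean FPKM of 2 libraries on a log scale (x axis) for the annexins (red) and for 4 lists of related genes (blue), with the median of each as a black bar, the highest gene named and FPKM 30 as a dashed line. The medians are 12.5 FPKM for annexins, 9.69 for annexin partners and 10.7 for membrane repair, and S100A6, S100A10 and S100A11 stand in 2 lists.

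The labelled cell line was checked against epithelial and A549 markers. Of 10 listed, 9 had a mean of at least FPKM 1, as had 10639 of all 16802 named rows. Among the 9 were KRT8, at 337 ± 3.11 FPKM (SD, n = 2), and ALDH1A1, at 76.4 ± 1.97 FPKM (SD, n = 2). CDH1 was just above that level, at 1.33 ± 0.0219 FPKM (SD, n = 2), and EPCAM below it, at 0.430 ± 0.0402 FPKM (SD, n = 2). The alveolar markers SFTPB, SFTPC and NKX2-1 were all below FPKM 1, and of 5 markers of blood, vessel and stroma with a value 1, COL1A2, was above it, at 1.36 ± 0.0678 FPKM (SD, n = 2). The reference transcripts GAPDH and ACTB, at 367 ± 16.7 FPKM and 487 ± 4.66 FPKM (SD, n = 2 each), exceeded every annexin.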

How the data were processed

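Reads were trimmed by the authors (cutadapt 1.18), mapped to GRCh38 (HISAT2 2.1.0), sorted (SAMtools) and quantified per gene (StringTie 1.3.3b), and the authors deposited FPKM for each library. Depth is unknown. Whole reads were sought in 5405 rows with a mean below 0.3 FPKM and above 0 in both libraries. No more than 76 of them (1.41%) had the same ratio of replicates (log2 values within 0.02), so whole reads were not recovered. Means, SDs, ranks and log2 ratios (pseudocount 1) were computed, with named rows of mean FPKM of at least 1 as background. Gene models, lengths and sequences came from GENCODE 44 on GRCh38 (92.9% of named rows had a length). Coding sequences were aligned with Biopython 1.88. Python 3.11.15, numpy 2.4.6, pandas 2.3.3 and matplotlib 3.10.9 were used, and the computation of ratios and percentiles was tested on simulated data. The members and gene lists were chosen with earlier results of these data known. The genes named were all members, the other annexin genes, members of the lists with the highest and lowest first, the nearest genes in level of the 3 highest members, and GAPDH and ACTB. Alternatives were other thresholds, library rules, filters, pseudocounts, length scaling and single libraries. RIP input or IgG controls were not used here.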

Additional observations from a re-analysis of the deposited data

How the results depend on the processing

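At FPKM 50 the number of annexins above the threshold was 2 (ANXA2 and ANXA5), against 4 at FPKM 30, and the number of partner genes was 1 (S100A10), against 4, because the threshold itself differs. With single libraries the annexin count was 3 to 4 and the partner count 4. The shares of all named rows by these rules were not computed, so these counts have no background beside them. The median place of the members, above 67.5% of named rows with a mean of at least 1, was 79.4% without that filter and 44.2% among rows with a mean of at least 5, because the set of rows differs, and 58.3% with FPKM multiplied by transcript length. The share of ANXA2 in the family was 33.2% with that product and 42.3% to 43.1% with single libraries. Without ANXA10 the median of the members was 15.3 FPKM, against 12.5. Of 26 alternatives, 19 moved a value by no more than a set spread or kept a count within 1.5 times. For the median place, the share of ANXA2 and the median FPKM, this spread was the SD of the single-library values. The single-library alternatives of those results lay within it nearly by construction, so they are no check. For the median absolute log2 ratio, the spread was the SD over the members, not between the libraries. Members are not replicates, so the alternatives of that result, all counted among the 19, are no check either. No paired analysis was possible because both libraries belong to the same group. At an unknown depth no precision can be given for low values such as that of ANXA10, and ANXA2 and ANXA8 may share reads with their copies.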

Other observations

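Further groups of calcium-binding genes were described beside the annexins. Of 14 S100 genes with a value, S100A10 and S100A11, which are also among the partners, had a mean above FPKM 30, against 8.45% of all named rows. A mean of at least 1 was found for 6 of the 14, against 10639 of all 16802 named rows. Of these 6, 2 were above 30, against 13.3% of named rows at that level. The median of the 14 was 0.506 FPKM, and the counts were not tested. S100A13, which takes part in unconventional secretion, had 10.8 ± 0.807 FPKM (SD, n = 2), S100A16 had 3.82 ± 0.0828 FPKM (SD, n = 2) and S100A4, a marker of motile cells, had 2.26 ± 0.106 FPKM (SD, n = 2). S100A8 was at 0.102 FPKM in replicate 1 and listed at 0 in replicate 2, and its partner S100A9 was listed at 0 in replicate 1 and at 0.233 FPKM in replicate 2.

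Copines and extended synaptotagmins bind membranes through C2 domains rather than an annexin core. Of 11 with a value, 1, CPNE3, had a mean above FPKM 30, at 31.7 ± 1.07 FPKM (SD, n = 2), a share near the 8.45% of all named rows, and the median was 6.30 FPKM. ESYT2, a tether of the endoplasmic reticulum to the plasma membrane, had 16.8 ± 0.188 FPKM (SD, n = 2), CPNE8 had 15.2 ± 1.63 FPKM (SD, n = 2) and CPNE9 had 0.0147 ± 0.00588 FPKM (SD, n = 2).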
